A study of Homo sapiens with 12 samples.

Results

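The genes described here encode the proteins of the cytoplasmic ribosome. They were taken from the count table by name: protein-coding genes of GENCODE release 29 whose symbols begin with RPL or RPS and a number, plus RPLP0, RPLP1, RPLP2 and RPSA, without mitochondrial ribosomal proteins, S6 kinases or Y-linked copies. The rule used no measured value. It found 83 genes among the 25141 of the table, 51 of the large subunit and 32 of the small subunit. Of these, 77 are core ribosomal proteins and 6 are paralogs of a core protein (RPL3L, RPL7L1, RPL22L1, RPL26L1, RPL39L and RPS27L). GENCODE holds 84 genes of this kind, and the other one, RPL10L, was not analysed here.

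RNA-seq was made from HOS, a human osteosarcoma cell line, in 12 libraries that fall into 4 groups of 3. The upCIN85 cells were a pool resistant to geneticin (G418) after transfection with the plasmid pRc/CMV2-Rukl, which encodes the full-length form of the adaptor protein CIN85, and the Mock cells were transfected with the empty vector and selected alike. In siCIN85, CIN85 was silenced with 3 siRNAs given as a mix, and siNeg is its negative control siRNA; neither group is described as carrying a plasmid. The upCIN85 cells are a resistant pool and not a clone, so the plasmid level per cell is not known, and a bulk library cannot tell fewer cells with a transcript from less of it per cell. The study asked how the level of CIN85 changes the transcriptome of these cells. It examined Akt and mTOR signaling, the pathway that governs the translation of ribosomal protein mRNAs. From western blots it reports more activation of Akt and mTOR with CIN85. Its gene set enrichment analysis of the RNA-seq lists mTORC1 signaling among the terms upregulated in upCIN85.

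Ribosomal protein mRNAs are among the most abundant transcripts of dividing cells, and their products are built with rRNA into the small and the large subunit in near equal numbers. Most of these mRNAs begin with a 5′ terminal oligopyrimidine (TOP) tract, a C followed by an unbroken run of pyrimidines. Through this tract, mTORC1 and the RNA-binding protein LARP1 set how well the mRNAs are translated and how long they persist. Counts of mRNA measure neither translation nor ribosome number.

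The RefSeq start sites of GRCh38.p14 show this tract. Of the 83 genes, 66 had a promoter sequence there. The windows below run 15 bases before and 15 bases from the annotated start, with the pyrimidine run that opens with C at the start in capitals where it is at least 5 bases long. They belong to some of the genes at the ends of the order of change described below (RPS18, RPS25, RPL13, RPL41). Others are the gene that passed the test between the control groups (RPL9) and 3 core genes beside their paralogs. Of the other genes named at these ends, RPS7, RPL26L1, RPS26, RPL3, RPS28 and RPL17 have no such run, and RPL11 has one. RPL13 has 3 annotated starts, and the start with the longest run is shown.
RPS18: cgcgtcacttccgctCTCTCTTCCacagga
RPS25: tctgagcagcgcttcCTTTTTgtccgacat
RPL13: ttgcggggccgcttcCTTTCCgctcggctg
RPL41: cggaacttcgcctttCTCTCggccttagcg
RPL9: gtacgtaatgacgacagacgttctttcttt
RPL22: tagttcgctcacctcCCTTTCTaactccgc
RPL22L1: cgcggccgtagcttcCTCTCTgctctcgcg
RPS27: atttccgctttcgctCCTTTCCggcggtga
RPS27L: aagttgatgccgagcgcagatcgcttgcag
RPL26: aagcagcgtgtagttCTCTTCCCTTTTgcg
RPL26L1: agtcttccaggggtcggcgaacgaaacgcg
The windows lie at chr6:33272060-33272089 on the plus strand (RPS18), chr11:119018329-119018358 on the minus strand (RPS25), chr16:89560667-89560696 on the plus strand (RPL13), chr12:56116618-56116647 on the plus strand (RPL41) and chr4:39458908-39458937 on the minus strand (RPL9). Those of the pairs lie at chr1:6199581-6199610 on the minus strand (RPL22), chr3:170870181-170870210 on the minus strand (RPL22L1), chr1:153990747-153990776 on the plus strand (RPS27), chr15:63157463-63157492 on the minus strand (RPS27L), chr17:8383179-8383208 on the minus strand (RPL26) and chr5:172958714-172958743 on the plus strand (RPL26L1). RPL26 has a run of 12 pyrimidines and RPS27 of 7, while their paralogs RPL26L1 and RPS27L have none at the annotated start. RPL22 and RPL22L1 both carry a run, of 7 and 6 bases.

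A start of this kind (C followed by at least 4 bases that are C or T) was present for 47 of the 66 genes (71.2%), against 5.14% of the 27305 genes with a promoter sequence. In the 300 bases around the start, searched on both strands, CCGGAAG (the core of ETS factor sites) was found in 36.4% of the ribosomal protein genes against 12.2% of all genes, and TCTCGCGA in 18.2% against 1.37%. GGGCGG (the Sp1 box) was found in 57.6% against 48.3%, and TATAAA (the TATA box) in 9.09% against 14%. These are matches of letters and not bound sites.

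Total counts per library lay between 5334731 and 6049458 in the plasmid experiment (Mock and upCIN85) and between 3540641 and 4174860 in the siRNA experiment. Mitochondrial transcripts took 3.52% to 7.53% of the counts. Of the osteoblast lineage markers, COL1A1 had 1277 to 7311 counts and SPARC 1339 to 3150 per library, RUNX2 25 to 228, COL1A2 65 to 1250 and SPP1 5 to 78, whereas ALPL had 0 to 23 and IBSP 0 to 1; SP7 and BGLAP were not analysed here. PTPRC (blood) had 0 to 1 counts, PECAM1 (endothelium) 0 to 6, MYOD1 (muscle) 0 to 3 and EPCAM (epithelium) 85 to 360. SH3KBP1, the gene for CIN85, lay at 3.88 to 9.77 CPM (counts scaled to library size with TMM factors) in siCIN85 and at 82.6 to 87.2 in siNeg. It lay at 71.0 to 90 CPM in the libraries labelled upCIN85 and 73.0 to 82.8 in Mock, which overlap. Whether a transcript of the plasmid is counted at SH3KBP1 in this 3′ end assay was not tested, so these counts do not check the label upCIN85. The study examined CIN85 protein in the pool by western blot with densitometry and reports that the full-length form was overexpressed.

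The 83 genes took 6.66% to 8.39% of all counts in a library. The Mock replicates 1, 2 and 3 had 6.66%, 6.77% and 7.61%, and the upCIN85 replicates 7.10%, 6.99% and 7.22%. The siNeg replicates had 7.58%, 7.96% and 8.39%, and the siCIN85 replicates 7.45%, 7.72% and 8%. Mock replicate 1 was the lowest and siNeg replicate 3 the highest, and Mock replicate 3 stood above the other Mock libraries and above all upCIN85 libraries. With 273445 to 437023 counts in these genes per library, the exact (Clopper-Pearson) 95% interval of a share is narrow (6.64% to 6.69% for Mock replicate 1); it covers counting error only.

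**Figure D1:**
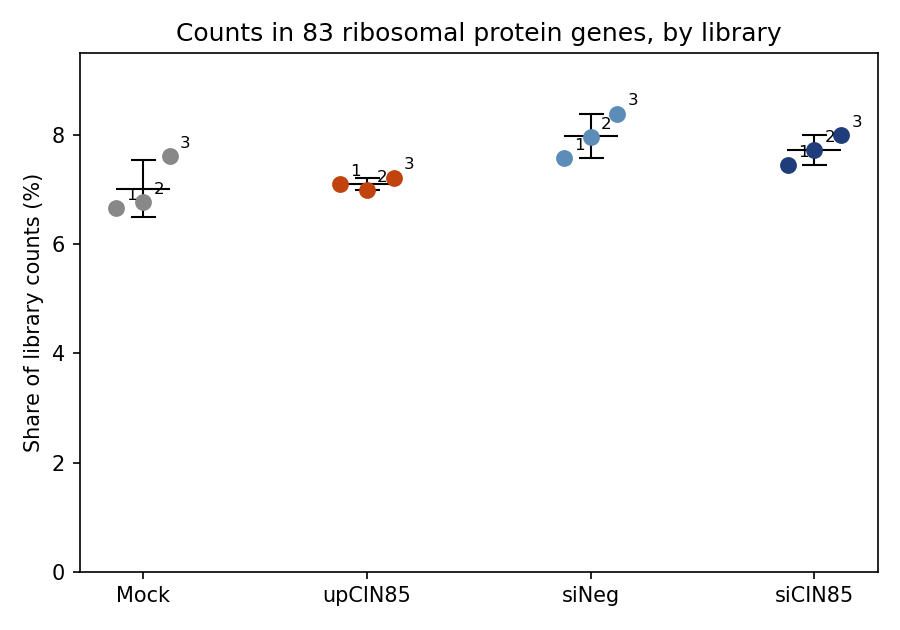
Share of each library's counts (%, y axis from 0) that fell in the 83 ribosomal protein genes, by group. Each dot is 1 library with its replicate number, the horizontal line is the group mean and the error bar 1 SD (n = 3). The groups overlap in every comparison, and the siRNA libraries lie between 7.45% and 8.39%.

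The mean share of Mock was 7.01% ± 0.517 and that of upCIN85 7.10% ± 0.111, while siNeg had 7.97% ± 0.404 and siCIN85 7.73% ± 0.276 (SD, n = 3). The difference was 0.0918 percentage points between upCIN85 and Mock (exact permutation test over libraries, two-sided, P = 0.9), and it turned to -0.0825 without Mock replicate 1 and to -0.0309 without Mock replicate 2. It was 0.389 without Mock replicate 3, and 0.147 and 0.0356 without upCIN85 replicate 2 or 3. Between siCIN85 and siNeg it was -0.248 points (exact permutation P = 0.5), smaller than the SD of either group. This difference moved to -0.445 without siNeg replicate 1, to -0.0413 without siNeg replicate 3, to -0.111 without siCIN85 replicate 1 and to -0.387 without siCIN85 replicate 3. Within same-numbered pairs the siCIN85 library had the lower share in 3 of 3, with differences of -0.127, -0.234 and -0.382 points (exact sign-flip test over the pairs, two-sided, added after seeing the data, P = 0.25, the smallest that 3 pairs allow). Between siNeg and Mock the difference was 0.962 points (exact permutation P = 0.2), more than the SD of either group, although siNeg replicate 1 lay below Mock replicate 3. Unpaired, 3 libraries against 3 cannot give a P below 0.1.

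A few transcripts carried much of this share. RPS29, a small zinc-binding protein of the small subunit, RPS27A, which is made as a fusion with ubiquitin, RPL27A and RPL37A of the large subunit, and RPS21 of the small subunit together held 25.2% to 29.1% of the ribosomal protein counts of a library. RPS29 alone measured 5221, 4771 and 6253 CPM in Mock, 5418, 5155 and 5760 in upCIN85, 6319, 6376 and 7608 in siNeg, and 5614, 6788 and 6445 in siCIN85. All its siRNA libraries except siCIN85 replicate 1 lay above every library of the plasmid experiment. These counts of 3′ ends are not used to rank genes by abundance, since genes differ in how much of their 3′ end is shared with pseudogenes. The counts in large subunit genes divided by those in small subunit genes gave a ratio of 0.889 to 1.03 over the 12 libraries.

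Some members had very few counts although the ribosome needs each of them. Over all 12 libraries RPL17 had 117 counts, RPS26 358, RPL21 537, RPS3A 1201, RPL3 1326 and RPL6 1489, while RPS29 had 339534. Ribosomal protein genes have processed pseudogenes, copies that retain nearly the same sequence. To describe this, each 75 base window (the read length) in the last 300 bases of each gene's transcripts was searched in all GENCODE transcripts. In 7 genes (RPL17, RPL21, RPS3A, RPL3, RPL6, RPS27 and RPS25) at least 50% of the windows occurred in a pseudogene as well, and their median total was 1326 counts. In 50 genes some but under 50% did (median 28938 counts, from 358 to 339534), among them RPL41 with 13.9% and 1513 counts. In 26 genes none did (median 49367 counts, with RPL3L at 4). The gene sharing most windows with RPL17 was RPL17-C18orf32, a protein-coding gene that overlapped 24.8% of the exon bases of RPL17 on the same strand. Of the 83 genes, 35 shared exon bases with another gene on the same strand, and the effect on their counts was not tested. How the authors treated reads that map to several places is not given in the sources used here, and the part of such reads in these totals was not tested. Counts in ribosomal protein pseudogenes amounted to 1.13 to 1.59 per 100 counts in the 83 genes.

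Of the 83 genes, 82 passed the filter on low counts and were tested with 12542 genes in all. RPL3L, the muscle paralog of RPL3, had 4 counts over all libraries and was not tested. The median SD of log2 CPM between libraries of a group was 0.13 for the 82 genes and 0.22 for all genes tested. It was smallest for RPS15 (0.046), RPL29 (0.059) and RPL8 (0.061) and largest for RPL17 (0.41), RPL7 (0.26) and RPS18 (0.25). Libraries of a group moved as wholes to a degree, since 66 of the 82 genes lay above their group mean in Mock replicate 3, 67 in siNeg replicate 3 and 15 in siNeg replicate 1. The study's methods speak of biological replicates in general, and the labels do not say whether the libraries of a group came from separate cultures, so that P-values measure the spread between these libraries.

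In the libraries labelled upCIN85 the ribosomal protein genes lay close to Mock. The edgeR quasi-likelihood test with Benjamini-Hochberg adjustment called 0 of the 82 genes, against 1.23% of all genes tested, while DESeq2 called 1 (RPS2). A replicate block in both experiments called 2, RPS2 above Mock (adjusted P = 0.00481) and RPS25 below it (adjusted P = 0.0181), where 8.25% of all genes were called. At an unadjusted P below 0.05 there were 5 with a higher and 6 with a lower value, 11 of 82, where 14.5% of all genes reached this level. The median log2FC was 0.047, against 0.0072 for all genes, with 50 genes above 0 (51.1% of all genes were) and 32 below. All values lay between -0.40 and 0.39, and the 95% confidence interval lay within an absolute log2FC of 0.59 (about 1.5-fold) for 76 of the 82 genes. The large subunit genes had a median of 0.042 (50 genes) and the small subunit genes of 0.049 (32 genes). The median over the 82 genes ranged from 0.0076 without Mock replicate 2 to 0.10 without Mock replicate 3.

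**Figure D2:**
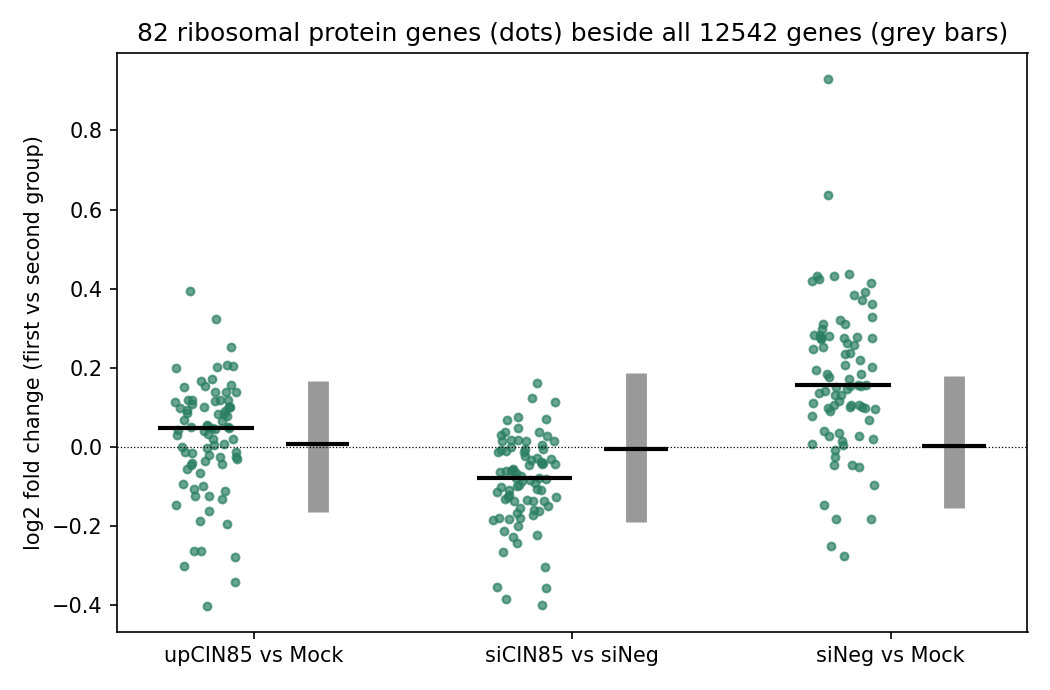
Log2 fold change (y axis) of the 82 tested ribosomal protein genes in 3 comparisons. Each green dot is a gene and the black line beside it the median. The grey bar spans the first to the third quartile of all 12542 genes, with their median in black. The medians of the ribosomal protein genes are 0.047, -0.077 and 0.16, and those of all genes lie within 0.01 of 0.

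The highest value belonged to RPS2, a protein near the mRNA entry channel of the small subunit (chromosome 16, 1962052 to 1964860, GRCh38). It measured 227, 228 and 219 CPM in Mock and 279, 331 and 276 CPM in upCIN85, and 223, 242 and 189 CPM in siNeg and 224, 241 and 196 CPM in siCIN85. Every upCIN85 library lay above the other 9 libraries. Of the end windows of RPS2, 31.4% occurred in pseudogenes. The edgeR log2FC was 0.39 (SE 0.11, adjusted P = 0.0817). RPS2 was the 1 member called by DESeq2 (adjusted P = 0.0423; 2.61% of all genes were called) and by edgeR with a replicate block in the knockdown, an alternative chosen after seeing the data (adjusted P = 0.021; 4.35% of all genes were called). Over all alternatives its adjusted P ranged from 0.00481 to 0.243. In siCIN85 against siNeg the log2FC of RPS2 was 0.015 (95% confidence interval -0.22 to 0.25).

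RPL41, a very short basic peptide of the large subunit, and RPL13 followed. RPL41 measured 21.1, 23.8 and 22.3 CPM in Mock and 33.4, 27.1 and 23.6 CPM in upCIN85, where replicate 3 lay below Mock replicate 2 (log2FC 0.32, SE 0.14, adjusted P = 0.309 from edgeR). RPL13 measured 988, 893 and 979 CPM in Mock and 1107, 1046 and 1256 CPM in upCIN85, and the groups did not overlap. Its log2FC of 0.25 (SE 0.096) came with an edgeR adjusted P of 0.22. The siCIN85 comparison gave -0.17 (SE 0.097, adjusted P = 0.419), with 1055, 1155 and 1013 CPM in siNeg and 930, 1020 and 924 CPM in siCIN85.

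The lowest values were those of RPS25, RPL26L1 and RPS7. RPS25, a small subunit protein that several viral internal ribosome entry sites need, measured 157, 135 and 174 CPM in Mock and 143, 102 and 108 CPM in upCIN85, and upCIN85 replicate 1 lay within the Mock range. With a log2FC of -0.40 (SE 0.13), its edgeR adjusted P was 0.142, and 57.1% of its end windows occurred in pseudogenes. RPL26L1, the paralog of RPL26, measured 40.6, 45.0 and 52.8 CPM in Mock and 36.4, 35.6 and 37.2 CPM in upCIN85, without overlap (log2FC -0.34, SE 0.13, adjusted P = 0.213 from edgeR). RPS7 measured 74.1, 65.7 and 94.5 CPM in Mock and 70.8, 59.2 and 60.2 CPM in upCIN85, which overlap (log2FC -0.30, SE 0.13, adjusted P = 0.302 from edgeR). Over the 82 genes, 10 had all upCIN85 libraries above all Mock libraries (12.2%, against 9.74% of all genes), among them RPS2, RPL13, RPL11, RPL22, RPS19 and RPS28. In 3 genes (3.66%, against 11% of all genes) all upCIN85 libraries lay below Mock, namely RPL26L1, RPL34 and RPS14.

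In siCIN85 against siNeg most ribosomal protein genes had a log2FC slightly below 0, and none passed the test. The edgeR quasi-likelihood test called 0 of the 82 genes (1.04% of all genes were called), DESeq2 called 0 (2.46% of all genes), and the replicate block in the knockdown gave 0 (3.42%). At an unadjusted P below 0.05 there were 0 higher and 6 lower, where 15.7% of all genes reached this level in either direction. The median log2FC was -0.077, against -0.0052 for all genes, with 18 genes above 0 and 64 below (50.8% of all genes lay below). Scaled by total counts alone, the median was -0.036, with 29 above and 53 below, against a median of 0.034 for all genes. The values ranged from -0.40 to 0.16, and the 95% confidence interval lay within an absolute log2FC of 0.59 for 76 genes. Large subunit genes had a median of -0.070 and small subunit genes of -0.091. The median moved to -0.13 without siNeg replicate 1, the siNeg library with the lowest share, and to -0.036 without siNeg replicate 3, the one with the highest.

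The lowest values belonged to RPS18, RPS26 and RPL3. RPS18, which sits in the head of the small subunit (chromosome 6, 33272010 to 33276510, GRCh38), measured 798, 798 and 1027 CPM in siNeg and 556, 726 and 707 CPM in siCIN85, without overlap. Its log2FC of -0.40 (SE 0.16, edgeR adjusted P = 0.241) was -0.29 without siCIN85 replicate 1 and -0.27 without siNeg replicate 3. RPS18 also varied among Mock libraries (778, 654 and 1003 CPM) and upCIN85 libraries (1003, 726 and 987 CPM), and the range of either group exceeded the difference between the siNeg and siCIN85 means. A block for the replicate number in both experiments gave an adjusted P of 0.0118, and one in the knockdown alone 0.14. With the block in both experiments RPS18 was the 1 member called, with 7.72% of all genes. Of the end windows of RPS18, 45.1% occurred in a pseudogene.

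RPS26 measured 6.25, 6.84 and 6.51 CPM in siNeg and 5.82, 4.63 and 4.49 CPM in siCIN85, from 16 to 42 counts per library (log2FC -0.38, SE 0.24, adjusted P = 0.461 from edgeR). RPL3, which lies near the peptidyl transferase center, measured 24.2, 21.7 and 23.7 CPM in siNeg and 16.5, 17.6 and 20.3 CPM in siCIN85 (log2FC -0.36, SE 0.16, adjusted P = 0.294 from edgeR). Neither overlapped between the groups, and RPL3 is among the genes whose end windows mostly occur in pseudogenes. The 3 highest values were those of RPL11 (0.16), RPS28 (0.12) and RPL17 (0.11, SE 0.39, from 5 to 16 counts per library), and their groups overlapped. In 10 genes (12.2%, against 10.2% of all genes) every siCIN85 library lay below every siNeg library, and in 0 every siCIN85 library lay above (9.91% of all genes did). RPS14, a small subunit protein lost in the myelodysplasia with 5q deletion, was on this list and on that of the upCIN85 comparison; it was chosen after its values were seen. It measured 1874, 1995 and 2489 CPM in Mock, 1838, 1864 and 1855 in upCIN85, 2826, 2810 and 2704 in siNeg, and 2382, 2607 and 2349 in siCIN85, and it passed the test in neither comparison (log2FC -0.19 and -0.18, adjusted P = 0.412 and 0.4 from edgeR).

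**Figure D3:**
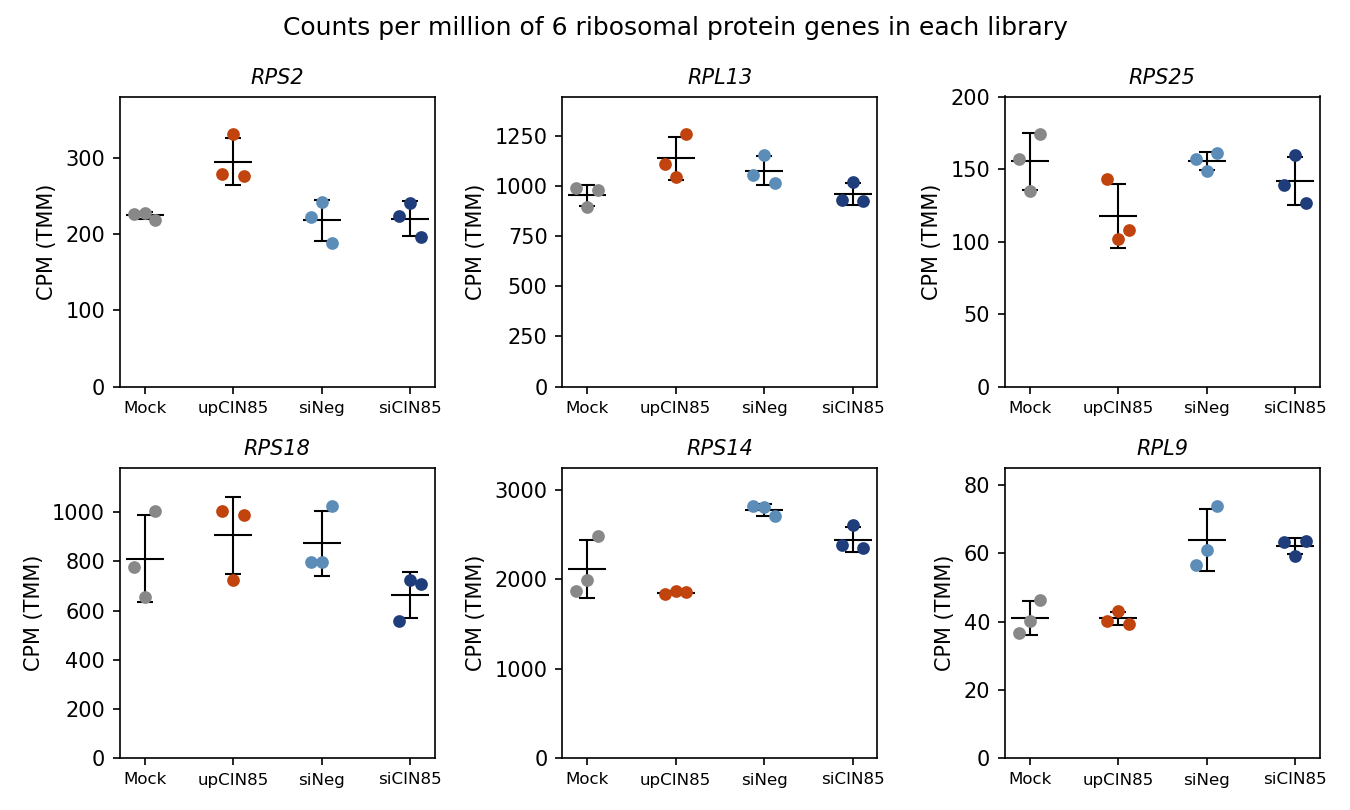
CPM (counts scaled to library size with TMM factors, y axis from 0) of RPS2, RPL13, RPS25, RPS18, RPS14 and RPL9 in each of the 12 libraries, by group. Dots are libraries in the order of replicates 1 to 3, the line is the group mean and the error bar 1 SD (n = 3). RPS2 lies at 276 to 331 CPM in upCIN85 and at 189 to 242 CPM elsewhere, and RPL9 lies at 36.5 to 46.3 CPM in the plasmid experiment and at 56.5 to 74.0 CPM in the siRNA experiment.

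The change with the plasmid and the change with the siRNA share no libraries. Of the 82 genes, 36 were above 0 in upCIN85 and below 0 in siCIN85, and 28 were below 0 in both. There were 14 above 0 in both, and 4 below 0 in upCIN85 and above 0 in siCIN85. Each comparison leaned to 1 side by itself, with 50 genes above 0 in upCIN85 and 64 below 0 in siCIN85. The same pairs of signs were not counted over all genes, so these counts do not show opposite changes. The difference between both effects was tested in the same fit. Its median was 0.11, against 0.010 for all genes, with 64 genes above 0 (51.1% of all genes were). The edgeR quasi-likelihood test called 0 of the 82 genes (0.973% of all genes were called), DESeq2 called 0 (2.22%), and 5 had an unadjusted P below 0.05, all above 0 (6.94%). RPL13 had a difference of 0.42 (SE 0.14, adjusted P = 0.152 from edgeR), RPS2 of 0.38 (SE 0.16, adjusted P = 0.275) and RPS18 of 0.56 (SE 0.23, adjusted P = 0.265).

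The median of the ribosomal protein genes lay farthest from 0 between the control groups. siNeg and Mock differ in the transfected molecule, drug selection, experiment and depth at once, and these cannot be told apart. The comparison shares Mock with the overexpression comparison and siNeg with the knockdown comparison. In siNeg against Mock, 71 of the 82 genes lay above 0 and 11 below (50.5% of all genes lay above), with a median log2FC of 0.16 against 0.0027 for all genes. Scaled by total counts alone, 64 lay above 0 with a median of 0.12. An unadjusted P below 0.05 was reached by 29 genes, all with higher values in siNeg (6.77% of all genes in that direction), and by 0 with lower values (5.67%). In 31 genes (37.8%, against 9.48% of all genes) every siNeg library lay above every Mock library, and in 0 every siNeg library lay below (9.94% of all genes did). Small subunit genes had a median of 0.25, with 30 of 32 above 0, and large subunit genes of 0.15, with 41 of 50 above 0. In the 25 tested genes without a window shared with a pseudogene the median was 0.19, and in the other 57 it was 0.15.

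After adjustment, 1 of the 82 genes passed the edgeR test, RPL9, which was higher in siNeg (0.415% of all genes were called in that direction, and 0.526% in either). RPL9, a large subunit protein (chromosome 4, 39452521 to 39458949, GRCh38), measured 36.5, 40.2 and 46.3 CPM in Mock and 56.5, 61.1 and 74.0 CPM in siNeg. It measured 40.2, 43.1 and 39.4 CPM in upCIN85 and 63.3, 59.3 and 63.6 CPM in siCIN85, so that all 6 siRNA libraries lay above all 6 plasmid libraries. This log2FC was 0.64 (SE 0.13), with an adjusted P of 0.0345 from edgeR. The adjusted P was 0.171, 0.154 and 0.062 without Mock replicate 1, 2 or 3, and 0.112 and 0.0852 without siNeg replicate 2 or 3, so that this call rests on each of these libraries. Of the end windows of RPL9, 48.6% occurred in pseudogenes, most often RPL9P9, whose own log2FC was 0.53 (adjusted P = 0.0774).

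The count of called genes depended on the test. It was 8 with DESeq2 (1.13% of all genes it tested were called higher), 6 with the replicate block in the knockdown (1.23% called higher) and 13 with a block in both experiments (2.86% called higher). The 6 with the block in the knockdown were RPL9, RPL26, RPL27A, RPL35, RPS3 and RPS27L. RPS3, a small subunit protein that also acts in DNA repair, measured 1732, 1958 and 1961 CPM in Mock and 2271, 2562 and 2747 CPM in siNeg (log2FC 0.42, SE 0.12, adjusted P = 0.123 from edgeR without the block and 0.0402 with it). RPL35 measured 353, 352 and 362 CPM in Mock and 445, 494 and 481 CPM in siNeg (log2FC 0.41, SE 0.095, adjusted P = 0.0639 and 0.0363). In both genes the groups did not overlap. RPL27A, the third of the 5 genes with most counts, measured 3124, 3225 and 3373 CPM in Mock and 3769, 4193 and 4611 CPM in siNeg (log2FC 0.37, SE 0.10, adjusted P = 0.132 and 0.0447).

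**Figure D4:**
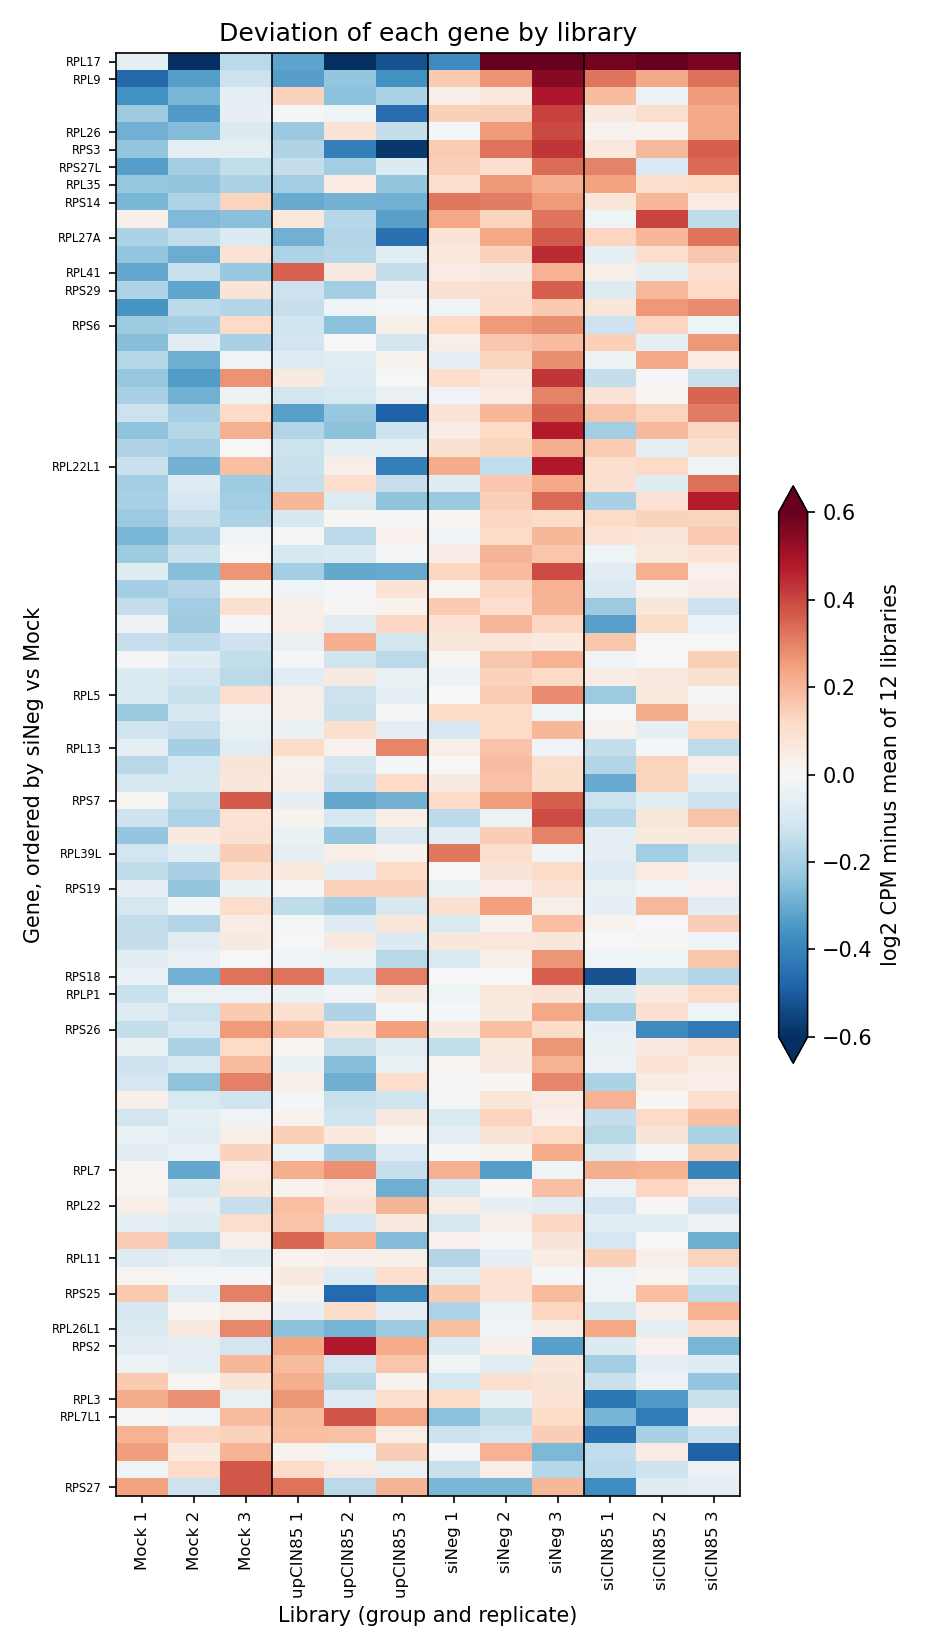
Deviation of each of the 82 tested genes (rows) in each of the 12 libraries (columns, black lines between groups), as log2 CPM minus the gene's mean over all libraries; the color scale ends at 0.6 in both directions. Rows are ordered by the log2FC of siNeg against Mock, with names at genes described in the text, from RPL17 at 0.93 to RPS27 at -0.27. Most rows of the upper part are blue in Mock replicates 1 and 2 and upCIN85 and red in siNeg, while Mock replicate 3 is closer to the mean.

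None of the members described next was called by edgeR in either CIN85 comparison. RPL5 and RPL11 form a particle with 5S rRNA that, when free, binds the p53 regulator MDM2. RPL5 measured 733, 708 and 833 CPM in Mock, 796, 711 and 745 in upCIN85, 775, 864 and 946 in siNeg, and 667, 809 and 774 in siCIN85, with overlap in every comparison. RPL11 measured 814, 825 and 815 CPM in Mock and 873, 877 and 881 in upCIN85, which did not overlap, at a log2FC of only 0.10 (SE 0.086, adjusted P = 0.64 from edgeR). In siCIN85 the log2FC was -0.20 for RPL5 (SE 0.11) and 0.16 for RPL11 (SE 0.086), with adjusted P of 0.368 and 0.376 from edgeR. RPLP0, RPLP1 and RPLP2 make up the stalk that recruits elongation factors. Their log2FC values lay between -0.066 and 0.066 in upCIN85 and between -0.0069 and 0.029 in siCIN85, and for RPLP1 the 95% confidence interval ran from -0.12 to 0.25 and from -0.20 to 0.18.

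RPS6 is the substrate of the S6 kinases, and its phosphorylation, which counts do not show, is used as a readout of mTORC1. It measured 1986, 2008 and 2493 CPM in Mock, 2119, 1945 and 2365 in upCIN85, 2500, 2753 and 2794 in siNeg, and 2113, 2520 and 2264 in siCIN85. The log2FC was -0.013 in upCIN85 (95% confidence interval -0.25 to 0.22) and -0.22 in siCIN85 (-0.46 to 0.015). RPS19, the gene most often altered in Diamond-Blackfan anemia, measured 1165, 1020 and 1170 CPM in Mock and 1198, 1327 and 1324 CPM in upCIN85, which did not overlap (log2FC 0.20, SE 0.090, adjusted P = 0.319 from edgeR). RPSA, also known as the laminin receptor precursor, had a log2FC of 0.098 in upCIN85 and -0.14 in siCIN85, with overlap in both comparisons.

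The paralogs lay on both sides of 0 in each comparison. The 5 that were tested had a median log2FC of 0.0046 in upCIN85, -0.13 in siCIN85 and 0.15 in siNeg against Mock, and the 77 core genes 0.049, -0.077 and 0.16. RPS27L, a p53 target, measured 215, 235 and 244 CPM in Mock and 299, 289 and 341 CPM in siNeg, without overlap (log2FC 0.42, SE 0.11, adjusted P = 0.111 from edgeR and 0.0286 with the block in the knockdown). RPS27 measured 65.3, 50.6 and 71.6 CPM in Mock and 45.7, 45.7 and 63.5 CPM in siNeg, with a log2FC of -0.27 (SE 0.17), the lowest of all members there. RPL39L, a paralog known from testis and tumors, measured 69.5, 60.1 and 55.2 CPM in siNeg and 53.6, 48.3 and 51.8 CPM in siCIN85, without overlap (log2FC -0.27, SE 0.12, adjusted P = 0.313 from edgeR), where RPL39 had -0.067. RPL22L1 and RPL22 had -0.094 and 0.21 in upCIN85, RPL7L1 and RPL7 0.21 and 0.20, and RPL26L1 and RPL26 -0.34 and 0.12; no paralog or partner was called there. In siCIN85, RPL22L1 and RPL22 had -0.15 and -0.055, RPL7L1 and RPL7 -0.13 and 0.069, RPL26L1 and RPL26 0.029 and -0.13, and RPS27L and RPS27 0.0005 and -0.060. RPL10, whose paralog RPL10L was not analysed here, had -0.043 in upCIN85 and -0.16 in siCIN85.

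Members with and without the pyrimidine start had medians of the same sign in every comparison, described here without a test. The 47 genes with it had a median log2FC of 0.049 in upCIN85, -0.077 in siCIN85 and 0.18 in siNeg against Mock, and the 19 genes with another annotated start had 0.031, -0.032 and 0.23.

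Other genes of the pathway were followed through lists. FAU, which lies outside the name rule and encodes RPS30 fused to a ubiquitin-like peptide, measured 929, 1042 and 1094 CPM in Mock and 899, 907 and 844 CPM in upCIN85, without overlap (log2FC -0.21, SE 0.089, adjusted P = 0.281 from edgeR). The list of translation factors with TOP mRNAs was drawn up with other genes too, among them NPM1, HNRNPA1, NACA and BTF3. Its 14 tested genes had medians of 0.033 in upCIN85, -0.062 in siCIN85 and 0.036 in siNeg against Mock. In siCIN85, 12 of these 14 lay below 0. The 10 snoRNA host RNAs with a TOP start had medians of -0.075, -0.0099 and 0.18. The 17 genes of the mTORC1 pathway and TOP mRNA regulators had medians of 0.013, 0.045 and -0.067. The 42 tested ribosomal protein pseudogenes had medians of 0.0013, 0.062 and 0.31, and 35 of them lay above 0 in siNeg against Mock. The edgeR test called 0 genes of these 4 lists in each of the 3 comparisons. At an unadjusted P below 0.05, the genes of the translation factor list numbered 0 in upCIN85, 1 in siCIN85 and 2 in siNeg against Mock. The snoRNA hosts numbered 1, 2 and 1, the mTORC1 pathway genes 1, 0 and 4, and the pseudogenes 1, 0 and 9. Of all genes tested, 14.5%, 15.7% and 12.4% reached this level. DESeq2 called 0 in both CIN85 comparisons, and in siNeg against Mock 1 snoRNA host higher, 1 mTORC1 pathway gene lower and 2 pseudogenes higher.

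The ribosome assembly factors, the nucleolar proteins and RNA polymerase I components that make rRNA and join it with ribosomal proteins, lay on the other side of 0 from the ribosomal protein genes in siCIN85. The 31 genes of this list include the transcription factor MYC. Of the 31, 28 had values above 0 in siCIN85 against siNeg (49.2% of all genes did), with a median log2FC of 0.19. Of the 82 ribosomal protein genes, 64 lay below 0. The edgeR test called 0 of the 31, and 9 had an unadjusted P below 0.05, all with higher values (7.55% of all genes in that direction). NOP16, a nucleolar protein of large subunit assembly, measured 117, 136 and 142 CPM in siNeg and 177, 186 and 182 CPM in siCIN85, without overlap (log2FC 0.46, SE 0.13, adjusted P = 0.0856 from edgeR). It was the 1 factor called with the replicate block in the knockdown (adjusted P = 0.0459, with 3.42% of all genes called). DESeq2 also called only NOP16 (adjusted P = 0.0383, with 2.46% of all genes called). NOP16 was chosen after its values were seen, as was NIP7. A block in both experiments called 6 factors in siCIN85 and 3 in upCIN85, all higher (7.72% and 8.25% of all genes in either direction). NIP7 measured 67.5, 68.2 and 70.6 CPM in siNeg and 90.3, 88.8 and 86.1 CPM in siCIN85 (log2FC 0.36, SE 0.10, adjusted P = 0.0993), also without overlap. In upCIN85 the median of the 31 factors was 0.025, with 19 above 0, and in siNeg against Mock it was -0.088, with 10 above 0. The edgeR test and DESeq2 called 0 in either. An unadjusted P below 0.05 was reached by 4 and 2 factors (14.5% and 12.4% of all genes).

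The mitochondrial ribosomal proteins, encoded in the nucleus and built into the ribosome of mitochondria, had medians of -0.016 in upCIN85, -0.066 in siCIN85 (21 of 74 above 0) and 0.062 in siNeg against Mock. The edgeR test called 1 of the 74 in upCIN85 (1.23% of all genes were called) and 0 in the others. At an unadjusted P below 0.05 there were 5 higher and 5 lower in upCIN85 (14.5% of all genes in either direction). There were 7 in siCIN85 (15.7%) and 3 in siNeg against Mock (12.4%). DESeq2 called 1 in upCIN85 (2.61% of all genes), 1 in siCIN85 (2.46%) and 0 in siNeg against Mock (1.68%). The gene called by edgeR was MRPS26, which was higher in upCIN85. It measured 120, 137 and 125 CPM in Mock and 172, 176 and 174 CPM in upCIN85 (log2FC 0.45, SE 0.095, adjusted P = 0.028 from edgeR). Its adjusted P was 0.0976, 0.0757 and 0.111 without Mock replicate 1, 2 or 3, and 0.0692 and 0.135 without upCIN85 replicate 1 or 3.

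**Figure D5:**
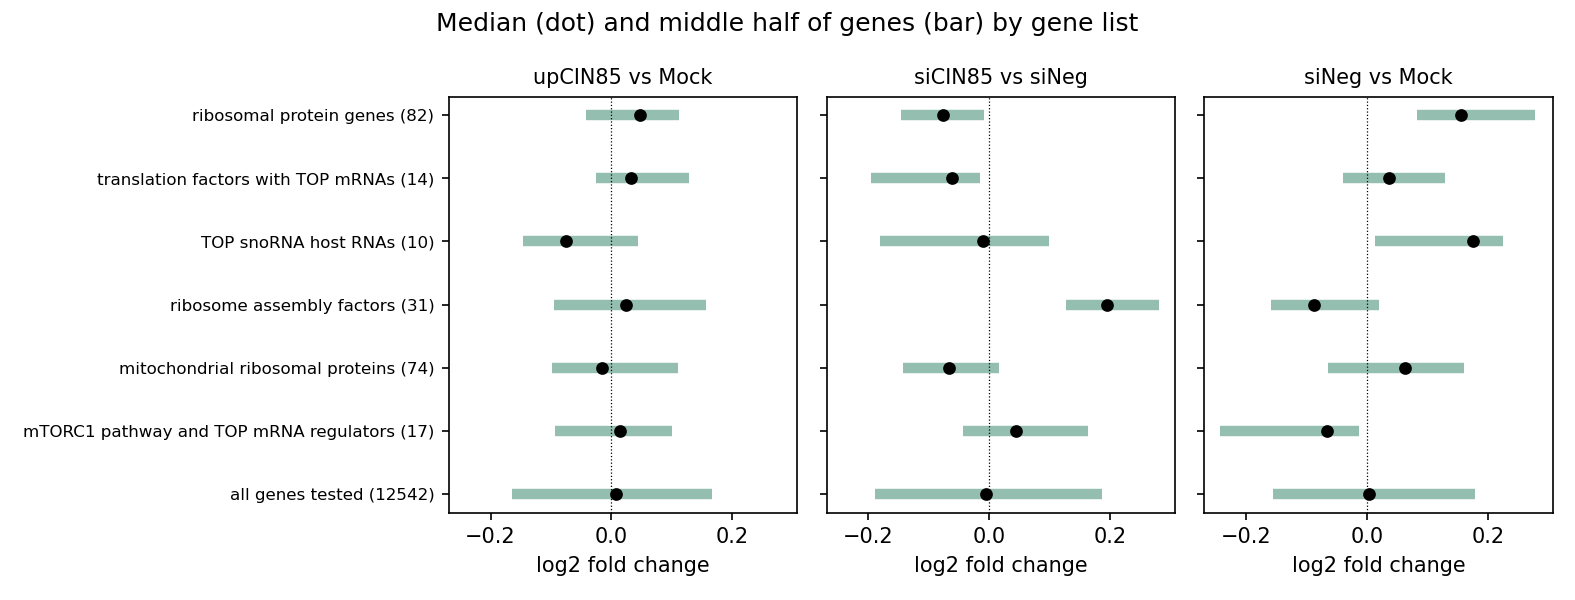
Median (dot) and range from the first to the third quartile (bar) of the log2 fold change (x axis) of genes in 7 lists, with the number of genes tested in parentheses, in 3 comparisons. In siCIN85 against siNeg the assembly factors have a median of 0.19 and the ribosomal protein genes of -0.077, and all genes tested are centered near 0.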

How the data were processed

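The authors made 3′ end libraries (QuantSeq 3′ FWD with a UMI module) and sequenced single-end reads of 75 bases. Per the labels, tools included cutadapt 4.3, STAR 2.7.3a, Picard 2.25.6 and Subread 2.0 with GRCh38; reads were summarized per gene with featureCounts, and raw counts were deposited for 25141 Ensembl genes. UMI collapsing, strand setting, annotation and multi-mapping are not given in the sources used here. Names and positions are of GENCODE release 29 (95 identifiers had no match), start sequences of RefSeq (GRCh38.p14).

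Counts of all 12 libraries were fitted together in R 4.3.3 with edgeR 4.0.16 (filterByExpr, minimum count 10 and total 15; TMM; quasi-likelihood test; 8 residual degrees of freedom; adjusted P below 0.05 over 12542 genes). SE is |log2FC| divided by the square root of F. DESeq2 1.42.0 was an alternative. Shares were compared by exact permutation tests. Replicates of a group differed by more than sampling noise. Across genes, deviations from the group mean were correlated between siNeg and siCIN85 libraries with the same number (r = 0.353, 0.269 and 0.446). For Mock and upCIN85 the values were 0.326, 0.227 and 0.0989, and over the 82 ribosomal protein genes 0.282, 0.351 and 0.26. Whether the shared numbers mark true pairs is not given in the sources used here. The main tests used no pairing, and the replicate blocks were alternatives. The genes and lists were chosen with earlier results of these data known. Named are genes called, the 3 highest and lowest log2FC of both CIN85 comparisons, paralog pairs, RPL5, RPL11, the stalk, RPS6, RPS19, RPSA, the 5 genes with most counts, and at most 3 called genes of a list. A few genes are counted in the totals but not reported here by name.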

Additional observations from a re-analysis of the deposited data

How the results depend on the processing

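The difference in the share of counts between upCIN85 and Mock reversed to -0.0825 points without Mock replicate 1 and -0.0309 without Mock replicate 2; over all libraries left out in turn it ranged from -0.0825 to 0.389. With the filter on low counts omitted, the ribosomal protein genes called were 1 higher and 1 lower in upCIN85, 1 lower in siCIN85, 7 higher in siNeg against Mock and 1 for the difference between effects, while the calls among all genes were 2.53%, 2.45%, 1.5% and 2.2%. A replicate block in both experiments gave 1 higher (RPS2) and 1 lower (RPS25) in upCIN85, 1 lower (RPS18) in siCIN85, 13 higher in siNeg against Mock and 2 (RPL13 and RPS18) for the difference; this block raised the calls among all genes from 1.23% to 8.25% in upCIN85, from 1.04% to 7.72% in siCIN85, from 0.526% to 4.69% in siNeg against Mock and from 0.973% to 7.32% for the difference, and every Mock and upCIN85 library correlated best with its own number, a hint from the data only. A replicate block in the knockdown alone, added after seeing the data, gave 1 higher in upCIN85 and 6 higher in siNeg against Mock, and no other call of a ribosomal protein gene changed. DESeq2 called 1 higher in upCIN85 and 8 higher in siNeg against Mock. Leaving out single libraries of the groups compared gave 0 to 1 higher in siNeg against Mock and 0 in both CIN85 comparisons; without upCIN85 replicate 2, which enters only the shared fit, siNeg against Mock had 2 (RPL9 and RPL35). The cause of these changes was not tested. RLE or total-count scaling, TMM factors without the ribosomal protein genes, at least 10 counts in every library and a fit of 6 libraries changed no direction of a median. In the 6-library fit of siNeg and Mock, RPL9 had an adjusted P of 0.057, and RPL35 was called instead (0.0498). Among the tested ribosomal protein genes, RPL17, RPS26 and RPL21 had the fewest counts (117, 358 and 537 over all libraries).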
